A study of Mus musculus with 8 samples.

Results

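The genes described here are 10 haematopoietic progenitor genes, Kit, Flt3, Cd34, Lmo2, Erg, Myb, Sox4, Meis1, Hoxa9 and Hoxa7. They were taken by symbol from the 24062 genes of the deposited count table, which held all 10. RNA had been sequenced from immature myeloid cells (IMCs), grown from bone marrow over 3 days in M-CSF (40 ng/mL), the growth factor of monocytes and macrophages. The C57BL/6 mice were 2 months old, and all carried floxed alleles of PARP1 or PARP2, genes for enzymes that attach poly(ADP-ribose) to proteins at DNA breaks. PARP1 WT mice were PARP1 flox/flox and PARP2 WT mice PARP2 flox/flox, both without Cre. PARP1CKO and PARP2CKO mice, littermates of the WT mice of their line, also carried lysozyme-Cre, a Cre driven in the myeloid lineage, so that cells outside this lineage keep the floxed gene. Each of the 4 groups had 2 libraries, described as biological duplicates. No label ties a library to 1 animal, so p-values measure the spread between libraries, which may be partly technical.

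Blood progenitors divide and pass through a series of choices before they become monocytes, neutrophils or other cells, and these genes are on mainly in the early stages. Kit and Flt3 are receptors for growth factors of stem and progenitor cells, and Cd34 is a surface protein by which such cells are often sorted. Lmo2 and Erg take part in the transcription factor network of blood stem cells, Myb and Sox4 are factors of immature cells, and Hoxa9, Hoxa7 and Meis1 are homeodomain factors that are turned down as myeloid cells mature. Mast cells keep Kit, dendritic cells keep Flt3, and megakaryocytes keep Erg and Meis1.

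The libraries held from 37852450 to 61845125 counts. The targeted genes followed the labels. Parp1 was at 206 ± 6.18 CPM (counts per 1000000 after TMM scaling; mean ± SD, n = 2) in PARP1 WT against 61.2 ± 2.91 CPM with the deletion, and Parp2 at 48.3 ± 0.105 CPM in PARP2 WT against 25.7 ± 0.0779 CPM with the deletion, so part of the RNA remained in both. In the PARP2 line Parp1 was at 251 and 155 CPM in PARP2 WT and at 263 and 264 CPM in PARP2CKO. The PARP2 WT libraries thus lay far apart for Parp1, with replicate 2 the lower. Genes of the labelled cells were abundant, with the M-CSF receptor gene Csf1r between 1134 and 1273 CPM and the neutrophil gene S100a9 between 858 and 1129 CPM.

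The promoters of Kit, Cd34 and Sox4, whose levels separated groups in the results, are shown as the 250 bases before the RefSeq start site on GRCm38 (mm10), 5′ to 3′ on the gene's strand. They are chr5:75574737-75574986 (plus strand), chr1:194938571-194938820 (plus strand) and chr13:28953700-28953949 (minus strand). Capitals mark a match to any of 5 motifs, searched on both strands.
Kit promoter: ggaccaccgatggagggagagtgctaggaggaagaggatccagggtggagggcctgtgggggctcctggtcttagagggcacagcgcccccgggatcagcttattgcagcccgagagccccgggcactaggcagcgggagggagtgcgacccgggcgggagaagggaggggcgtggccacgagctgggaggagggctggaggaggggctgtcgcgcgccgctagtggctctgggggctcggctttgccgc
Cd34 promoter: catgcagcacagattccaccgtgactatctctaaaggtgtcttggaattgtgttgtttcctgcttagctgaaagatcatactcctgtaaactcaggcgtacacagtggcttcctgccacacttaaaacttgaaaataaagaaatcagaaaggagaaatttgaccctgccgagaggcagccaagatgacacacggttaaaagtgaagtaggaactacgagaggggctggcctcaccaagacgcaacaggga
Sox4 promoter: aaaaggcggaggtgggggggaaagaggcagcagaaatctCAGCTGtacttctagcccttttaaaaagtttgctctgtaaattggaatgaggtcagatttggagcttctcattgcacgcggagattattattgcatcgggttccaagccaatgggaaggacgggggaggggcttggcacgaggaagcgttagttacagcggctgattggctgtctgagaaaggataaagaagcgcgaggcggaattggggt

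RefSeq promoters were matched for 9 of the 10 genes, all but Lmo2. The motifs were TGTGGT for RUNX factors, AGATAA for GATA factors, CCGGAA for ETS factors such as Erg, AACTG for Myb and the E-box CAGCTG bound by Tal1 with its partners, and no motif contains another. Sox4 held 1 E-box, starting 211 bases before the start site. Kit and Cd34 held none of the 5. Meis1 held a RUNX and an ETS motif, Hoxa7 a Myb motif, and the other promoters none. Of all 32851 windows of this length 14.0% held the RUNX letters, 9.99% the GATA, 12% the ETS, 39.1% the Myb and 13% the E-box letters. The matches are a description of these windows only. Their share of G and C ran from 46.4% for Cd34 through 70.8% for Kit to 81.2% for Myb.

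All 10 genes passed edgeR's filter on low counts, as 13197 genes did in all. To set genes against each other, CPM was divided by exon length. On this scale Lmo2 had the highest level, 55.2 CPM per kb as a mean over the 8 libraries, above 93.7% of the 12525 tested genes with a length. Cd34 followed with a level of 4.79, Kit with 2.62 and Myb with 2.22 CPM per kb, all below the middle of the tested genes. Erg, Flt3, Meis1 and Sox4 had levels from 0.872 down to 0.462 CPM per kb. Hoxa7 and Hoxa9 were lowest, with 0.0863 and 0.0622 CPM per kb, and rested on 7 to 20 and 9 to 31 counts per library. This order is that of the means over all 8 libraries, and neighbours changed places between the lines. Myb was above Kit in PARP2 WT (2.20 against 2.05 CPM per kb) and in PARP2CKO (2.06 against 1.73 CPM per kb). Flt3 was above Erg in both PARP1 groups and below it in both PARP2 groups, and Hoxa7 was above Hoxa9 in both PARP1 groups and below it in both PARP2 groups, by group means.

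**Figure D1:**
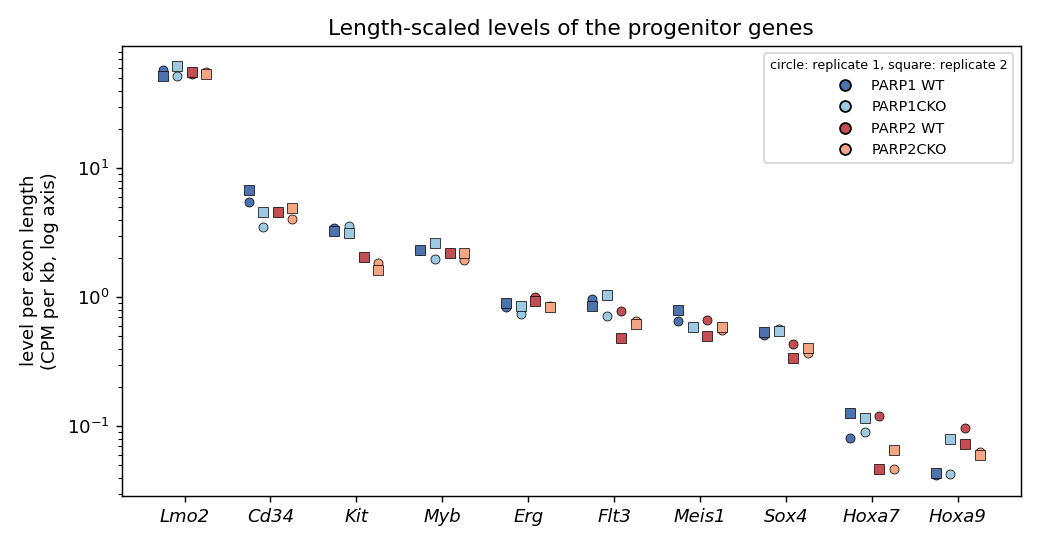
Level of each gene per exon length in all 8 libraries, in CPM per kb on a log axis, with a colour for each group, circles for replicate 1 and squares for replicate 2. Lmo2 sits far above the other 9 genes, and both Hoxa genes lie far below them.

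Deletion of either gene left the progenitor genes without a call. By edgeR's quasi-likelihood test (QL test, Benjamini-Hochberg adjustment over all genes tested, threshold 0.05), 0 of the 10 passed in PARP1CKO, where 0.106% of all genes did (0.0303% higher and 0.0758% lower). In PARP2CKO 0 of the 10 passed as well, where 0.0530% of all genes did (0.00758% higher and 0.0455% lower). At an unadjusted p under 0.05 there was 1 gene in each, Cd34 in PARP1CKO against 11.3% of all genes, and Kit in PARP2CKO against 4.83%. DESeq2 and the likelihood-ratio test called Cd34 in PARP1CKO and 0 genes of the 10 in PARP2CKO. The median log2 fold change of the 10 was -0.03 in PARP1CKO and -0.07 in PARP2CKO, beside 0.01 and 0.00 over all genes. For 1 gene alone, a permutation of 2 against 2 libraries has 0.333 as its smallest two-sided exact p.

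**Figure D2:**
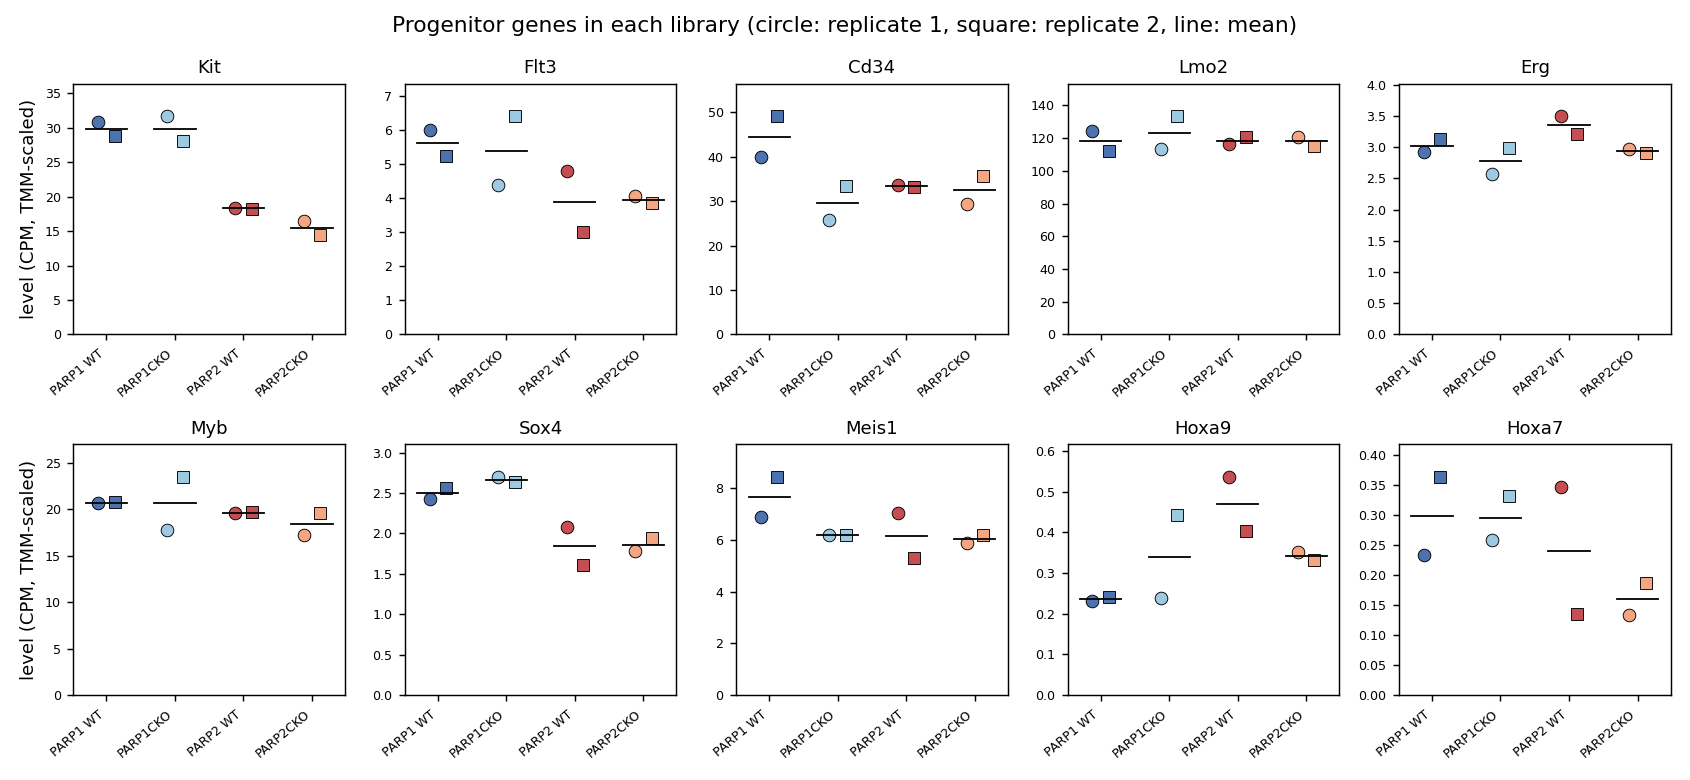
Level of each gene in CPM (linear axis from 0) in the 4 groups, with circles for replicate 1, squares for replicate 2 and a line for the group mean. Kit and Sox4 split by floxed line, Cd34 is lower in both PARP1CKO libraries than in both PARP1 WT libraries, and Lmo2 stays between 112 and 133 CPM.

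Kit, the receptor for stem cell factor (chr5:75574916-75656722), differed between the floxed lines. Its levels were 30.8 and 28.8 CPM for PARP1 WT, 31.7 and 28.1 CPM for PARP1CKO, 18.4 and 18.2 CPM for PARP2 WT and 16.5 and 14.4 CPM for PARP2CKO. All 4 libraries of the PARP1 line were above all 4 of the PARP2 line, and both PARP2CKO libraries were below both PARP2 WT libraries. In PARP1CKO the log2 fold change was 0.00, with a 95% interval of -0.18 to 0.19. In PARP2CKO it was -0.24 (standard error 0.0838, interval -0.43 to -0.05) and did not pass (edgeR QL adjusted p = 0.888). Leaving out PARP2CKO replicate 1 gave -0.34, and leaving out replicate 2 gave -0.15.

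Between the Cre-free groups Kit fell in PARP2 WT to 0.614 times its PARP1 WT level, a log2 fold change of -0.70 (standard error 0.0819, interval -0.89 to -0.52, edgeR QL adjusted p = 0.00429). It was the 1 gene of the 10 to pass there, beside 3.16% of all genes (1.92% higher and 1.24% lower). The call held under every alternative setting listed in the methods and without each WT library in turn, with adjusted p up to 0.0461. Mice of different lines were not littermates and no label gives a batch, so line and batch cannot be told apart. Kitl, the gene of the Kit ligand, was at 21.2 and 20.6 CPM in PARP1 WT and 28.0 and 26.6 CPM in PARP2 WT. Both PARP2 WT libraries were higher for Kitl, but the difference did not pass (log2 fold change 0.39, edgeR QL adjusted p = 0.218).

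The summed level of mast cell and basophil markers was lower in every PARP2 library than in every PARP1 library, as Kit was. The 9 markers summed to 26.1 and 24.3 CPM (PARP1 WT), 21.1 and 29.0 CPM (PARP1CKO), 14.6 and 11.6 CPM (PARP2 WT) and 7.23 and 9.59 CPM (PARP2CKO). None of the 6 tested was called in PARP2 WT against PARP1 WT, although all 6 had a negative log2 fold change (median -0.85) and an unadjusted p under 0.05, which 18.9% of all genes had. Hdc, the histamine-forming enzyme, was at 7.99 and 8.77 CPM for PARP1 WT, 8.60 and 11.1 CPM for PARP1CKO, 5.53 and 0.980 CPM for PARP2 WT and 0.805 and 0.870 CPM for PARP2CKO, so that the PARP2 WT libraries lay far apart, with replicate 2 near PARP2CKO. Of the mast cell proteases in the list, Tpsab1 and Mcpt4 were at 0 counts in every library and Tpsb2 had at most 1 count in a library, whereas Cpa3 was at 4.81 and 4.19 CPM (PARP1 WT), 2.85 and 4.31 CPM (PARP1CKO), 2.14 and 2.46 CPM (PARP2 WT) and 1.34 and 1.95 CPM (PARP2CKO). By group means Prss34 was at 7.02 CPM (PARP1 WT), 6.20 CPM (PARP1CKO), 4.41 CPM (PARP2 WT) and 3.17 CPM (PARP2CKO). Mcpt8 was at 3.60, 3.56, 2.16 and 1.85 CPM in the same order of groups. The part of mast cells and basophils in the Kit level was not tested. In bulk RNA, fewer cells of a type and less RNA per cell cannot be told apart.

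The B lineage and erythroid lists were also lower in the PARP2 line. The 12 B lineage markers summed to 38.8 and 32.8 CPM (PARP1 WT), 34.4 and 49.4 CPM (PARP1CKO), 12.3 and 10.3 CPM (PARP2 WT) and 8.62 and 11.9 CPM (PARP2CKO), and 8 of the 11 tested fell between the WT groups (median log2 fold change -1.81), beside 1.24% of all genes that fell. Cd79a, a chain of the B cell receptor complex, was at 9.80 and 8.20 CPM in PARP1 WT and 2.75 and 2.42 CPM in PARP2 WT. The erythroid list summed to 11.9 and 13.3 CPM (PARP1 WT), 14.3 and 18.8 CPM (PARP1CKO), 10.8 and 7.77 CPM (PARP2 WT) and 8.38 and 8.70 CPM (PARP2CKO), and 2 of 8 genes fell between the WT groups, beside the same 1.24% of all genes. These were the alpha globins Hba-a1 and Hba-a2, whose counts were identical in each library and which count as 1 measurement. The T and NK cell list summed to at most 4.09 CPM, with Cd3d, Cd3e and Cd3g at or below 0.115 CPM and 0 of 3 tested genes called. Whether these cells have a part in the Kit difference was not tested.

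**Figure D3:**
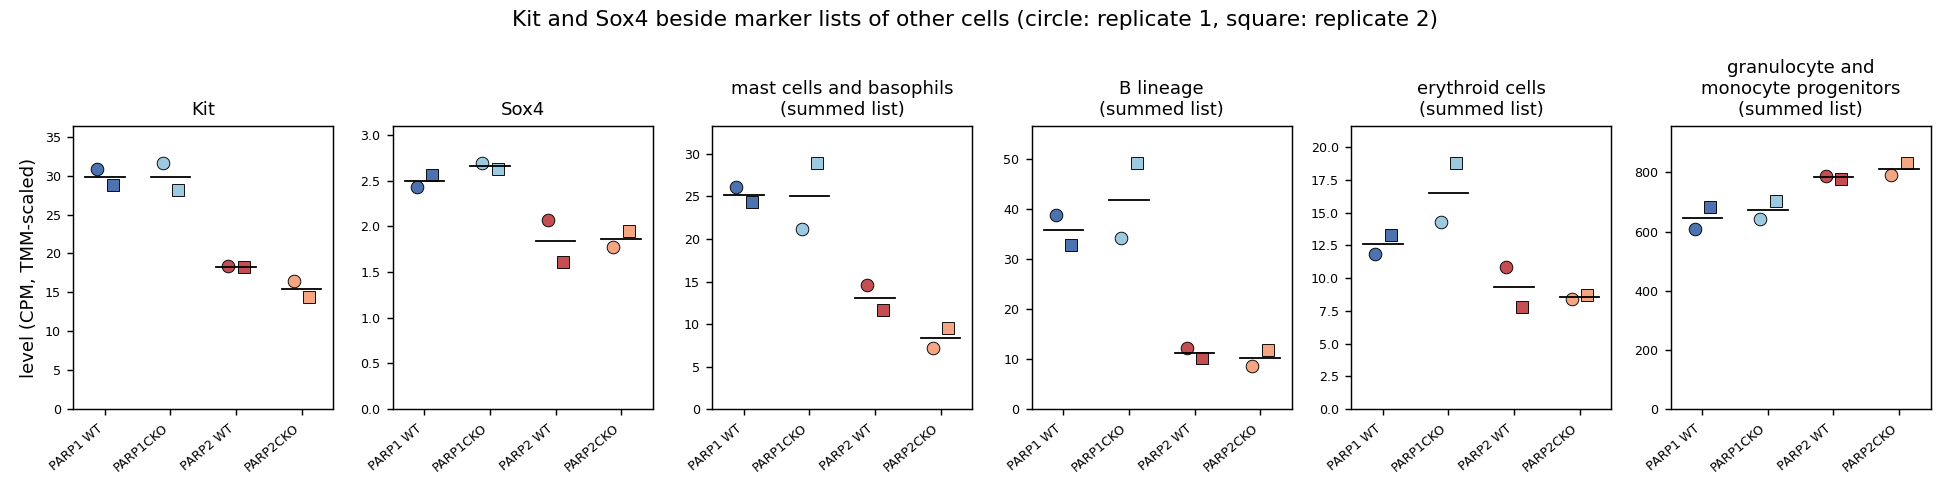
Kit and Sox4 levels beside the summed levels of marker lists, all in CPM on linear axes from 0, with circles for replicate 1, squares for replicate 2 and a line for the group mean. The mast cell and basophil sum and the B lineage sum are lower in every PARP2 library than in every PARP1 library, as Kit is. The granulocyte and monocyte progenitor sum is higher in every PARP2 library than in every PARP1 library.

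Flt3, the receptor for Flt3 ligand on early progenitors and dendritic cells (chr5:147330741-147400489, minus strand), was measured at 6.02 and 5.24 CPM (PARP1 WT), 4.38 and 6.41 CPM (PARP1CKO), 4.81 and 3.00 CPM (PARP2 WT) and 4.07 and 3.85 CPM (PARP2CKO). The WT groups did not overlap, whereas each CKO group overlapped its WT group. Its log2 fold change between WT groups, -0.52, did not pass (edgeR QL adjusted p = 0.274) and ranged from -0.90 without PARP2 WT replicate 1 to -0.23 without PARP2 WT replicate 2. In the CKO comparisons the intervals were wide, -0.59 to 0.46 for PARP1CKO and -0.52 to 0.55 for PARP2CKO. Flt3l, the gene of the ligand, stayed between 5.57 and 6.66 CPM in all 8 libraries. The 8 dendritic cell genes summed to at most 92.6 CPM, and their sum was lowest in PARP2 WT replicate 2, as Flt3 was. Of these genes 0 were called in the 4 comparisons of the design, and 4 when both PARP2 groups were set against both PARP1 groups. The part of dendritic cells in the Flt3 level was not tested.

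Cd34 (chr1:194938819-194961279) had the largest difference of the 10 in PARP1CKO. Its levels read 39.9 and 49.1 CPM (PARP1 WT), 25.7 and 33.3 CPM (PARP1CKO), 33.6 and 33.3 CPM (PARP2 WT) and 29.2 and 35.6 CPM (PARP2CKO). Both PARP1CKO libraries were below both PARP1 WT libraries, and PARP1 WT stood above all 6 other libraries. The log2 fold change in PARP1CKO was -0.60 (standard error 0.139, interval -0.91 to -0.28) and did not pass (edgeR QL adjusted p = 0.222). DESeq2 (adjusted p = 0.000615), edgeR's likelihood-ratio test (0.00745) and the QL test without a filter on low counts (0.00893) called it, and over all other settings and left-out libraries the adjusted p was between 0.105 and 0.378. Earlier work on these libraries had singled out Cd34, so the value is no independent evidence. In PARP2CKO the log2 fold change was -0.05 (interval -0.36 to 0.26). Between WT groups it was -0.41 (edgeR QL adjusted p = 0.151), which DESeq2 and the QL test without a filter called and the other settings did not. That value was -0.26 without PARP1 WT replicate 2, and with both PARP2 groups set against both PARP1 groups it was -0.14.

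In PARP1CKO 3 of the 10 genes had groups that did not overlap, beside 41.2% of all genes. Cd34 and Meis1 were lower (all genes 20.2%) and Sox4 was higher (21.0%). In PARP2CKO there were 4, Kit, Myb, Hoxa9 and Erg, all lower, beside 18.8% of all genes that were lower, 18.4% higher and 37.2% in either direction. For Myb 1 PARP2CKO library equalled a WT library to 3 digits.

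Lmo2, an adaptor that joins Tal1 and GATA factors (chr2:103957986-103981878), varied least. Its levels were 124 and 112 CPM (PARP1 WT), 113 and 133 CPM (PARP1CKO), 116 and 121 CPM (PARP2 WT) and 121 and 115 CPM (PARP2CKO). Each pair of compared groups overlapped, and the highest library had 1.19 times the level of the lowest, the smallest such ratio of the 10 genes. With 4812 to 7211 counts per library the log2 intervals were narrow, -0.12 to 0.24 in PARP1CKO, -0.18 to 0.17 in PARP2CKO and -0.17 to 0.18 between WT groups.

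Erg, an ETS factor of stem cells, megakaryocytes and endothelium (chr16:95359169-95586593, minus strand), gave 2.92 and 3.12 CPM (PARP1 WT), 2.58 and 2.99 CPM (PARP1CKO), 3.49 and 3.21 CPM (PARP2 WT) and 2.97 and 2.90 CPM (PARP2CKO). Both PARP2 WT libraries were higher than all 6 others. The log2 fold change in PARP2CKO was -0.19 with an interval of -0.49 to 0.11, and no comparison called it. Endothelial and stromal genes summed to 27.8 to 37.7 CPM, led by Kdr, and 0 of the 11 tested were called in the 4 comparisons of the design.

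Other factors of stem and progenitor cells were tested beside Lmo2 and Erg, 15 of the 16 listed. Between WT groups 1 was called, beside 3.16% of all genes (1.92% higher and 1.24% lower). Tal1, the partner of Lmo2, was at 29.8 and 31.8 CPM in PARP1 WT and 24.5 and 23.3 CPM in PARP2 WT and fell (log2 fold change -0.36, edgeR QL adjusted p = 0.0217). In PARP1CKO 0 were called (median log2 fold change 0.01), beside 0.106% of all genes. In PARP2CKO 0 were called (median -0.04, 11 of 15 negative), beside 0.0530% of all genes. Lyl1, a relative of Tal1, was at 55.5 and 60.0 CPM with PARP2 deleted against 64.7 and 69.0 CPM in its WT group, without overlap, and did not pass (log2 fold change -0.21, edgeR QL adjusted p = 0.622).

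Myb, a factor that progenitors need to keep dividing (chr10:21124935-21160984, minus strand), had levels of 20.7 and 20.8 CPM for PARP1 WT, 17.8 and 23.5 CPM for PARP1CKO, 19.6 and 19.7 CPM for PARP2 WT and 17.2 and 19.6 CPM for PARP2CKO. In PARP1CKO 1 library lay below and 1 above both WT libraries. The log2 intervals were -0.27 to 0.26 for PARP1CKO and -0.36 to 0.17 for PARP2CKO, and no comparison called it.

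Sox4, a factor of early lymphoid and myeloid precursors (chr13:28948919-28953713, minus strand), split by line as Kit did. The libraries read 2.43 and 2.56 CPM for PARP1 WT, 2.70 and 2.63 CPM for PARP1CKO, 2.08 and 1.61 CPM for PARP2 WT and 1.78 and 1.95 CPM for PARP2CKO. Each PARP2 library was below each PARP1 library. Its log2 fold change was 0.09 in PARP1CKO (interval -0.27 to 0.46) and 0.01 in PARP2CKO (interval -0.37 to 0.39). Between WT groups the value of -0.43 did not pass (edgeR QL adjusted p = 0.207). It was -0.63 without PARP2 WT replicate 1 and -0.27 without replicate 2. The B lineage sum was also lower in each PARP2 library than in each PARP1 library. The part of B lineage cells in the Sox4 level was not tested. A noncoding gene on the opposite strand, Gm26735, shares 2616 bases with the Sox4 exons. The authors describe strand-specific libraries, but the strand setting of the counting is not given in the sources used here. How reads over these shared bases were counted is therefore not known. The same holds over shorter stretches for Meis1 (Gm16140, 896 bases), Myb (Gm26577, 559 bases) and Cd34 (Gm16897, 148 bases). Meis1 also shares 1029 exon bases with Gm37818 on its own strand, which a strand setting would not separate.

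Both PARP2 groups were also set against both PARP1 groups, a comparison chosen after the values were seen. In it Kit (-0.83, edgeR QL adjusted p = 9.79e-05) and Sox4 (-0.48, edgeR QL adjusted p = 0.0249) fell, beside 16.4% of all genes called, 8.36% higher and 8.04% lower. At an unadjusted p under 0.05 there were 3 of the 10, with Flt3 as the third, beside 31.9% of all genes. Kit and Sox4 were the 2 genes whose lines did not overlap, both lower, beside 9.93% of all genes lower, 10.5% higher and 20.4% in either direction. In the same comparison all 6 tested mast cell and basophil genes fell (Cpa3, Mcpt8, Ms4a2, Fcer1a, Hdc and Prss34), 9 of 11 B lineage genes fell, and of 12 genes of granulocyte and monocyte progenitors 7 rose and 1, Cst7, fell. Of 8 erythroid genes 5 fell (Slc4a1, Hba-a1, Hba-a2, Hbb-bs and Hbb-bt), of 8 dendritic cell genes 3 fell (Ccr9, Tcf4 and Cd209a) and 1 rose (Itgax), of 10 neutrophil genes 3 fell (Mmp9, Retnlg and Cxcr2), and of 12 monocyte and macrophage genes 5 rose. Of 14 receptors, ligands and surface proteins 4 rose (Csf2rb, Il3ra, Prom1 and Cd93) and 1 fell (Csf3r), and of 15 stem and progenitor factors 1 rose (Gfi1) and 3 fell (Gata2, Tal1 and Ikzf2). The remaining lists had 1 call each, Pbx2 higher among 10 homeodomain genes, Vwf lower among 8 megakaryocyte genes and Pdgfrb higher among 11 endothelial and stromal genes, and the T and NK cell list had 0 of 3 by edgeR, with 2 at an unadjusted p under 0.05.

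Meis1, the homeodomain partner of Hoxa9 (chr11:18879817-19018985, minus strand), was found at 6.90 and 8.42 CPM (PARP1 WT), 6.19 and 6.19 CPM (PARP1CKO), 7.02 and 5.29 CPM (PARP2 WT) and 5.88 and 6.19 CPM (PARP2CKO). Both PARP1CKO libraries were below both PARP1 WT libraries, but the log2 fold change of -0.31 did not pass (interval -0.65 to 0.02, edgeR QL adjusted p = 0.458) and was -0.16 without PARP1 WT replicate 2. The megakaryocyte list, led by Itgb3, summed to 453 and 521 CPM (PARP1 WT), 430.5 and 533 CPM (PARP1CKO), 535 and 379 CPM (PARP2 WT) and 431 and 421 CPM (PARP2CKO). The library with more Meis1 had the higher sum in both WT groups and the lower sum in PARP2CKO, and in PARP1CKO Meis1 was equal to 3 digits while the sums differed. None of the 8 genes was called in the 4 comparisons of the design, and their part in the Meis1 level was not tested.

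Hoxa9 and Hoxa7 lie side by side (chr6:52223100-52231089 and chr6:52214491-52221854, minus strand). The Hoxa9 counts were 9 and 12 (PARP1 WT), 12 and 20 (PARP1CKO), 31 and 21 (PARP2 WT) and 21 and 16 (PARP2CKO). In CPM both PARP2 WT libraries were above both PARP1 WT libraries, with a log2 fold change of 0.98 that did not pass (interval 0.13 to 1.84, edgeR QL adjusted p = 0.207). For Hoxa7 the counts were 9 and 18 (PARP1 WT), 13 and 15 (PARP1CKO), 20 and 7 (PARP2 WT) and 8 and 9 (PARP2CKO). The PARP2 WT libraries were as far apart as nearly the whole range of the gene, and its log2 fold change in PARP2CKO turned from -0.62 to 0.23 without PARP2 WT replicate 1. At this depth the log2 intervals in PARP2CKO were wide. They ran from -1.22 to 0.30 for Hoxa9 (standard error 0.337) and from -1.81 to 0.56 for Hoxa7 (standard error 0.522). Both intervals run from negative to positive, so the direction of change was not resolved for either gene. Hoxaas3 on the opposite strand shares 586 bases with the Hoxa7 exons.

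Several other genes of the Hoxa cluster were low. Hoxa4 was between 0.450 and 0.801 CPM. Hoxa2, Hoxa3, Hoxa5, Hoxa6, Hoxa10 and Hoxa13 had at most 0.159 CPM in any library, and Hoxa11 had 0 counts in all 8. Of 19 other Hox genes and homeodomain partners, 10 were tested and 0 were called in the 4 comparisons of the design. Pbx2, the most abundant partner, was between 39.4 and 48.1 CPM.

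The difference between both deletion effects was tested for each gene, and 0 of the 10 passed the QL test, beside 0.0152% of all genes, all of them lower (0.0152%). At an unadjusted p under 0.05 there was 1, Cd34, beside 7.69% of all genes, and DESeq2 and the likelihood-ratio test called 0. For Cd34 the difference, PARP2CKO effect minus PARP1CKO effect, was 0.55 (interval 0.11 to 0.99, edgeR QL adjusted p = 0.609). For Kit it was -0.25 (interval -0.51 to 0.02). Without 1 library the Kit difference ranged from -0.35 (PARP2CKO replicate 1 left out) to -0.16 (PARP2CKO replicate 2 left out). It was also -0.16 without PARP1CKO replicate 1.

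**Figure D4:**
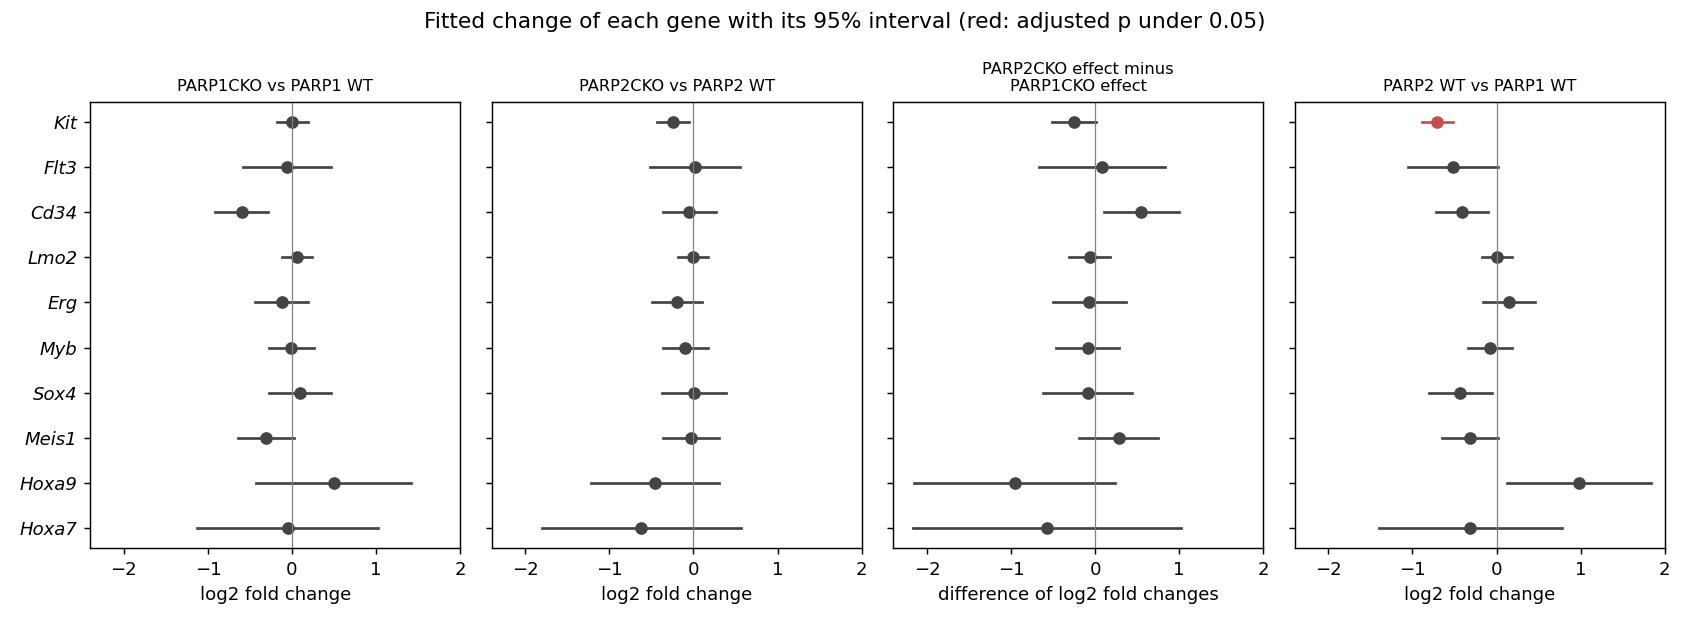
Fitted log2 fold change of each gene (points) with its 95% interval (bars) in the 4 comparisons, with red for an adjusted p under 0.05. Kit between the WT groups, at -0.70, is the only red point, and the Hoxa bars are the widest in every comparison.

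Between the WT groups the 10 genes did not move as a block. In PARP2 WT 7 were lower and 3 higher, with a median log2 fold change of -0.31 beside 0.00 over all genes. At an unadjusted p under 0.05 there were 4, Kit, Cd34, Hoxa9 and Sox4, beside 18.9% of all genes. Groups did not overlap for 5 lower genes, Kit, Cd34, Flt3, Myb and Sox4 (all genes 25.2%), and for 2 higher genes, Erg and Hoxa9 (26.7%), beside 51.9% of all genes in either direction. Among 14 other receptors, ligands and surface proteins of progenitors 1 rose and 1 fell, beside 1.92% of all genes higher and 1.24% lower. Il3ra, an interleukin 3 receptor chain, rose from 15.1 and 17.9 CPM to 22.6 and 24.8 CPM (edgeR QL adjusted p = 0.0217). Cd48, a surface protein of blood cells, fell (log2 fold change -0.29, edgeR QL adjusted p = 0.0217).

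Of the genes of committed granulocyte and monocyte progenitors, the stage after these, 3 of 12 rose in PARP2 WT against PARP1 WT, beside 1.92% of all genes, and 0 fell. Their median log2 fold change was 0.31, with 10 positive and 2 negative. Elane, neutrophil elastase, was at 44.3 and 48.6 CPM in PARP1 WT and 62.9 and 61.1 CPM in PARP2 WT (edgeR QL adjusted p = 0.0269). Prtn3, a granule protease, was at 27.5 and 32.9 against 43.7 and 44.2 CPM (edgeR QL adjusted p = 0.0197). Cebpa, a factor that commits cells to these lines, was at 35.2 and 46.0 against 59.5 and 56.6 CPM (edgeR QL adjusted p = 0.0383). For these 3 genes both PARP2 WT libraries were above both PARP1 WT libraries. In PARP1CKO and PARP2CKO 0 of the 12 were called, with medians of 0.02 and -0.02.

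Of mature cells, 2 of 12 monocyte and macrophage genes rose in PARP2 WT against PARP1 WT, beside 1.92% of all genes, among them the phagocytic receptor gene Mertk (log2 fold change 0.76). Of 10 neutrophil genes 2 fell, beside 1.24% of all genes, Mmp9 (-0.63) and Retnlg (-0.79). In both CKO comparisons 0 genes of either list were called.

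Within groups the spread of the progenitor genes was uneven. PARP1CKO replicate 2 held the highest level of Lmo2, Myb and Flt3 and the highest sum of the 10 genes. It also held the highest sums of the B lineage, T and NK cell, mast cell and basophil, erythroid, dendritic cell, and endothelial and stromal lists. PARP2 WT replicate 2 held the lowest level of Flt3, Meis1 and Sox4, and the lowest sums of the erythroid, megakaryocyte and dendritic cell lists. The part of these cells in the spread was not tested.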

How the data were processed

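RNA-seq counts of 8 IMC libraries were used. The authors trimmed single-end reads with fastq-mcf, mapped them to mm10 with TopHat (2.0.12), marked duplicates with Picard (1.127) and deposited raw counts per gene from featureCounts. The libraries are described as strand-specific, but the annotation and strand setting of the counting are not given in the sources used here.

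Genes were filtered with edgeR's filterByExpr, scaled by TMM (factors 0.965 to 1.03) and tested with edgeR 4.0.16 (R 4.3.3) by the quasi-likelihood test in 1 model fitted to all 4 group means, adjusting p-values over 13197 genes by Benjamini-Hochberg. Alternatives were DESeq2 1.42.0, its size factors, library size alone, no filter, a filter of 1 CPM in 2 libraries, the likelihood-ratio test, a replicate block, the 4 libraries of a comparison alone, and each library left out. Tests were checked on simulated counts. Positions and exon lengths came from GENCODE M21 and promoters from RefSeq, both on GRCm38. Replicate libraries differed by more than sampling noise (chi-square divided by the number of genes, 8.56 to 12.9 over the 4 groups).

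The genes and lists were chosen with earlier results of these data known. By rule, all 10 genes, the other Hoxa genes, and from each other list the called genes or up to 3 of the most abundant were named. Kitl, Flt3l, Lyl1, Cd3d, Cd3e and Cd3g were added after their values were seen. Adgre1 and Ly6g were not matched by symbol. Some listed genes are not reported here.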

Additional observations from a re-analysis of the deposited data

How the results depend on the processing

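The count of called progenitor genes changed in PARP1CKO from 0 to 1 (Cd34) with no filter on low counts, DESeq2 or the likelihood-ratio test, and between the WT groups from 1 to 2 with no filter or DESeq2 (Cd34 and Kit) and with both PARP2 groups set against both PARP1 groups (Kit and Sox4). Under every other setting run, and without each library of the groups compared, it was 0 in PARP1CKO, 0 in PARP2CKO, 0 for the difference and 1 (Kit) between WT groups. Calls over all genes rose from 14 to 101 with no filter, 86 with DESeq2 and 146 with the likelihood-ratio test in PARP1CKO, from 7 to 26, 27 and 39 in PARP2CKO, from 2 to 61, 45 and 72 for the difference, and from 417 to 872, 551 and 910 between WT groups, where the added comparison of both groups gave 2164. The cause was not tested. Without 1 library they were 1 to 34, 6 to 19, 1 to 16 and 85 to 319.

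With library size alone as the scaling, log2 fold changes near 0 changed sign, to -0.00143 for Kit in PARP1CKO, -0.00850 for Flt3 and -0.0191 for Sox4 in PARP2CKO and -0.0365 for Lmo2 between WT groups, where both groups of each line gave -0.0290. Without 1 library the sign was not stable for the following log2 ranges: in PARP1CKO Flt3 -0.36 to 0.19, Hoxa7 -0.31 to 0.33, Kit -0.0858 to 0.0869, Lmo2 -0.0631 to 0.17, Myb -0.22 to 0.18; in PARP2CKO Cd34 -0.19 to 0.0886, Flt3 -0.28 to 0.40, Hoxa7 -1.12 to 0.23, Lmo2 -0.0382 to 0.0288, Meis1 -0.22 to 0.19, Sox4 -0.16 to 0.20; for the difference Erg -0.17 to 0.0407, Flt3 -0.21 to 0.47, Hoxa7 -1.06 to 0.28, Lmo2 -0.18 to 0.0598, Myb -0.27 to 0.12, Sox4 -0.25 to 0.11; between WT groups Hoxa7 -1.16 to 0.18, Lmo2 -0.0709 to 0.0771. The filter of 1 CPM dropped Hoxa7 and Hoxa9, which therefore have no value there, and the difference cannot be fitted on 4 libraries.

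Deviations of same-numbered libraries correlated at -0.176 in the PARP1 line and 0.175 in the PARP2 line. These values, from 2 libraries per group and of opposite sign, cannot decide whether replicate numbers pair the samples. The main test used no pairing. With a replicate block the progenitor genes called were 0 in PARP1CKO, 0 in PARP2CKO, 0 for the difference and 1 (Kit) between WT groups, and all genes called were 14, 6, 3 and 315. With the PARP1CKO numbers crossed, an alternative added after seeing the data, 18 genes were called in PARP1CKO. Depth limits mainly Hoxa9 and Hoxa7, which rest on at most 31 counts per library.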
